A study of Homo sapiens with 6 samples.

Results

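The integrated stress response and the unfolded protein response were followed through 38 genes in HEK293 cells, a human line of embryonic kidney origin. The genes were taken from a list of ATF4, amino acid and endoplasmic reticulum (ER) stress genes by their symbol in the array's probe annotation. All 38 had a transcript cluster (the probes for 1 transcribed locus) of their own symbol, among 18417 genes with such a cluster and 33297 clusters in all. The treatment group comprised 3 arrays of HEK293 cells that the source label describes as given a Neo vector. The control group comprised 3 arrays of cells that the same label describes as given a transient vector. The series' design text describes another control, untreated cells, and names the tested plasmid as pCMV9. The labels therefore disagree on what the control cells received, and both groups are called by their titles. Both groups share the cell line, and the labels name no clone, time after treatment or dose. The stated purpose was to find what mediates an anti-HIV effect seen with an empty vector. No label says that replicates were separate cultures, so p-values cover only array-to-array variation, possibly technical.

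The integrated stress response starts with kinases that phosphorylate the translation factor eIF2α. General translation then slows while the message of the transcription factor ATF4 is translated more, and ATF4 switches on genes for amino acid supply, redox balance and, with its partner DDIT3 (CHOP), cell death. The unfolded protein response adds sensors in the ER membrane, IRE1 (encoded by ERN1), ATF6 and PERK (EIF2AK3), which raise chaperones and the degradation of misfolded proteins. ATF4 is controlled largely at translation, XBP1 by a splice event that IRE1 carries out, and ATF6 by cleavage. An intensity per gene reads none of these steps.

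The promoters of several of the genes hold letters that match DNA elements known from these pathways. These short stretches are shown because matches to such elements are a feature of the genes that the arrays do not measure. RefSeq windows (GRCh38.p14) from 250 bases before to 50 bases after each annotated start were searched on both strands for exact letters. Of the 38 genes 35 had a window. The ER stress response element (CCAAT, then 9 bases, then CCACG) was found for 6 of the 35 genes, against 0.0916% of the 27305 genes with a window. These were HSPA5, HSP90B1, PDIA6, CALR, CRELD2 and XBP1. Below, capitals mark the whole match, from CCAAT to CCACG, and each sequence reads along the gene's strand.
HSPA5 (chr9:125241386-125241414, minus strand): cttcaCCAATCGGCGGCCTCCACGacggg
XBP1 (chr22:28800598-28800626, minus strand): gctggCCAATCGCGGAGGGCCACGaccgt
HSP90B1 (chr12:103930211-103930239, plus strand): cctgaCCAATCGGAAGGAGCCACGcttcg
PDIA6 (chr2:10812848-10812876, minus strand): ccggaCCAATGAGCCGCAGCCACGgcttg

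A second form of the element (ATTGG, then 1 base, then CCACG) was found for HERPUD1, HYOU1 and SDF2L1, 3 of 35 genes, against 0.0696% of all genes. HYOU1 also held the only match among the 35 to TGACGTGG, the core of the element bound by XBP1, which overlaps one of its matches to the second form. That core was found for 0.927% of all genes. The core of the C/EBP-ATF response element bound by ATF4 (TGATG, then 1 base, then AA) was found for ASNS, CHAC1, HERPUD1, PPP1R15B and SLC3A2, or 14.3% of the 35 genes against 4.46% of all genes. Capitals again mark the match. In CHAC1 it lies on the opposite strand and so reads in reverse complement.
HERPUD1, second form (chr16:56932020-56932040, plus strand): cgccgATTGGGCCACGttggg
ASNS, C/EBP-ATF core (chr7:97872464-97872481, minus strand): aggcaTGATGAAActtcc
CHAC1, C/EBP-ATF core (chr15:40953257-40953274, plus strand): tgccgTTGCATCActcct
PPP1R15B, C/EBP-ATF core (chr1:204412032-204412049, minus strand): ccggcTGATGCAAcctca
A match of letters is a description of the window and no measure of binding. The elements are known from these pathways and the genes were listed for them, so their higher shares are no independent finding.

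Each array gave 1 linear intensity per cluster. Changes are differences of log2(intensity + 16), treatment minus control, from limma over all 33297 clusters, and adjusted p-values are Benjamini-Hochberg values over the same clusters. Median intensities lay between 80.5 and 84.2 on the treatment arrays and between 77.2 and 81.1 on the control arrays. Treatment replicate 3 stood apart, with a mean correlation of 0.963 with the other 5 arrays, where the others had 0.972 to 0.978. Over all clusters 0.372% passed an adjusted p of 0.05 (119 higher and 5 lower in treatment), 7.3% had an unadjusted p under 0.05, and in 14.6% the groups did not overlap. The interferon-stimulated genes ISG15, IFIT1 and OAS2, given as context, changed by 2.41, 2.79 and 4.60 on the log2 scale. Of 7 measured markers of the line, VIM, NEFL, NEFM, CDH2, KRT8 and KRT18 had mean intensities of 889 to 2588 in treatment and 895 to 2597 in control arrays, while PAX2 was at 106 and 56.1. Of 5 measured leukocyte markers, PTPRC, CD3E, LYZ and ITGAM lay below the 95th percentile of 360 olfactory receptor clusters (67.4 in treatment, 51.2 in control arrays), a class of genes not expected to be active here. CD14 did not, at 212 and 182. Of 5 fibroblast markers, DCN and LUM lay below that percentile in both groups, and PDGFRA was at 46.5 and 51.2. COL1A1 and COL3A1 lay above it, at 277 and 389 and at 90.3 and 65.4 in treatment and control arrays. Each treatment array of COL1A1 was below each control array (limma, unadjusted p = 0.0414, adjusted p = 0.680).

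None of the stress response genes passed the test between treatment and control. By limma, 0 of 38 had an adjusted p under 0.05, against 0.372% of all clusters, and the lowest adjusted p was 0.663. At an unadjusted p under 0.05 were 2 of 38, or 5.26%, against 7.3% of all clusters. In 6 of the 38 genes, or 15.8%, the groups did not overlap, near the 14.6% of all clusters. In bulk RNA, a large change in few cells and a small change in all cells cannot be told apart. The median log2 change over the 38 was 0.09, and the median over all clusters was 0.01. Of the 38 changes 26, or 68.4%, were above 0 and 12 below, against 51.8% above 0 over all clusters. Changes ran from -0.53 for VLDLR to 0.53 for CHAC1, so no gene reached a 1.5-fold difference on this scale. CHAC1 did without an offset, at 0.63 on a plain log2 scale. On the log2(intensity + 16) scale, the 95% interval lay within a 2-fold difference in either direction for 37 of the 38, CHAC1 being the exception. It lay within a 1.5-fold difference for 14. The offset understates changes of dim genes, so for them these bounds need not hold in intensity itself. Of all 33297 clusters, 31002 had an interval within 2-fold and 9163 within 1.5-fold. An adjusted p above the threshold does not show that treatment and control were alike.

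**Figure D1:**
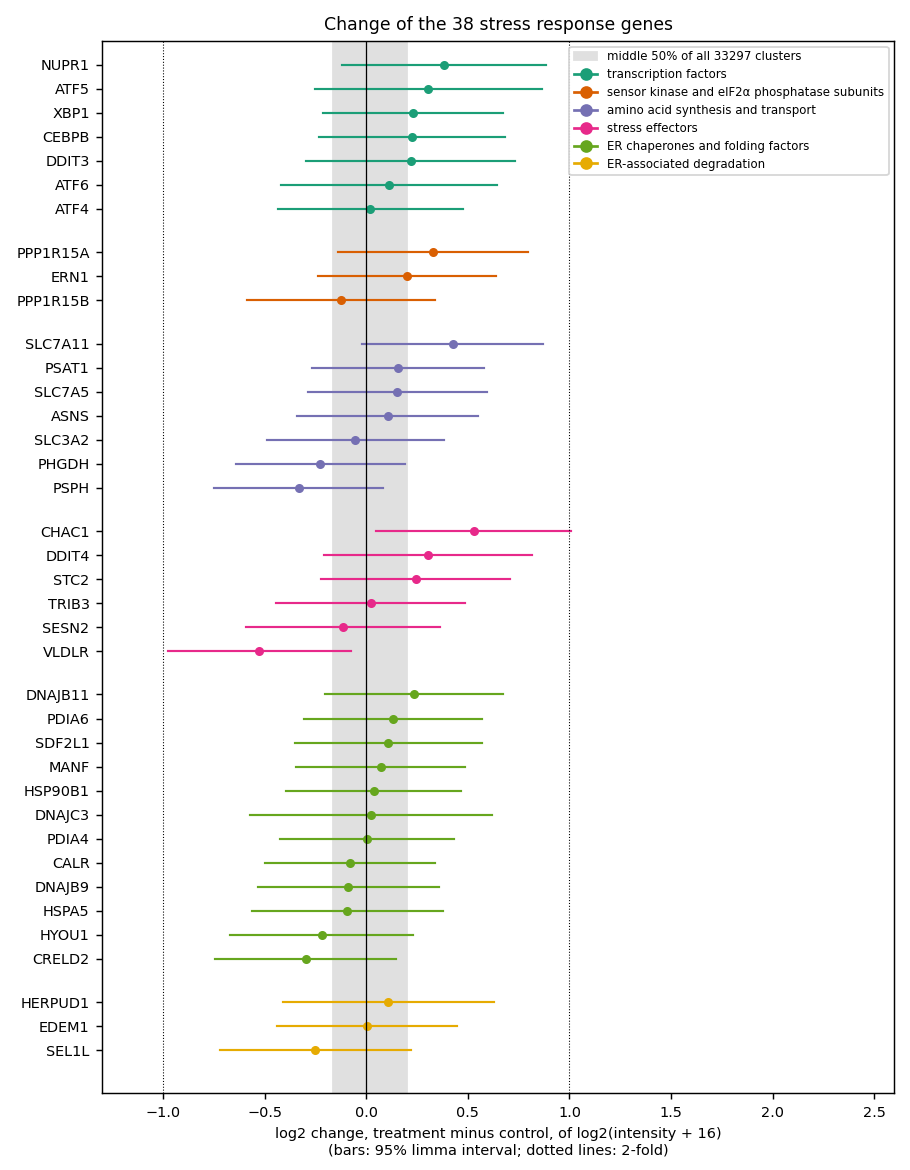
Log2 change of each of the 38 genes, treatment minus control, of log2(intensity + 16), with its 95% limma interval, grouped by role; the grey band is the middle 50% of all clusters (-0.16 to 0.20) and dotted lines mark 2-fold. Most intervals cross 0, and those of CHAC1 and VLDLR, on opposite sides, do not.

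Among the transcription factors, 0 of 7 passed, and all 7 changes were above 0, as were 51.8% of all clusters, with a median of 0.23. Without control replicate 1 that median was 0.11, and ATF4 and ATF6 gave -0.15 and -0.09. ATF4, the central activator of the integrated stress response, had intensities of 1087, 1169 and 1145 on the treatment arrays, against 882, 1207 and 1309 on the control arrays. Its treatment values lay inside the span of the controls, and limma put the difference at 0.02 ± 0.211 (log2, SE; adjusted p = 0.99). A second ATF4 cluster, with means of 312 in treatment and 258 in control arrays, gave 0.26 ± 0.195. DDIT3, the pro-death partner of ATF4, had 149, 233 and 196 in treatment, against 218, 146 and 130 in control. The highest control array exceeded all but 1 treatment array, and the change was 0.22 with a 95% interval from -0.30 to 0.73.

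XBP1, the factor downstream of IRE1, had 655, 701 and 573 in treatment, against 455, 566 and 623 in control, a log2 change of 0.23 (-0.21 to 0.68). Control replicate 1 was the lowest of the 6 values. ATF6, which is cut and sent to the nucleus under ER stress, had 715, 638 and 435 in treatment, against 404, 596 and 652 in control, a change of 0.11 (-0.42 to 0.64). Here replicate 3 was the low array in treatment and replicate 1 in control. Of the other factors, ATF5 gave 0.30, and 0.02 without control replicate 1, and CEBPB gave 0.23, and 0.09 without treatment replicate 3. NUPR1, a small stress-induced chromatin protein, gave 0.38. NUPR1 was dim, with means of 48.4 ± 6.38 in treatment and 34.6 ± 14.9 in control arrays (SD, n = 3 each), both below the 95th percentile of olfactory receptors given above, so this signal may be background.

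ERN1 encodes the sensor IRE1, and PPP1R15A (GADD34) and PPP1R15B are the subunits that direct a phosphatase to eIF2α, the first induced by stress and the other constitutive. ERN1 had intensities of 682, 688 and 898 in treatment, against 624, 715 and 619 in control, a log2 change of 0.20 (-0.24 to 0.64), and of 0.07 without treatment replicate 3. PPP1R15A had 464, 532 and 431 in treatment, against 290, 439 and 413 in control, a change of 0.33 (-0.14 to 0.79). Treatment and control overlapped in both, and in PPP1R15A control replicates 1 and 3 lay below all treatment arrays. PPP1R15B gave -0.12 (-0.59 to 0.34).

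Amino acid genes went both ways, and 0 of 7 passed (median 0.11). ASNS, asparagine synthetase and a classical ATF4 target, had 995, 864 and 734 in treatment, against 720, 772 and 909 in control, a log2 change of 0.10 (-0.34 to 0.55). Its spread within either group was larger than the difference between them. SLC7A11, the cystine importer, had 182, 210 and 140 in treatment, against 120, 132 and 128 in control. Every treatment array was above every control array, and the change was 0.43 (-0.02 to 0.87; limma, adjusted p = 0.696). Without treatment replicate 3 it was 0.57.

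The 3 enzymes of the serine synthesis route differed in sign. PHGDH, which catalyses its first step, had 1492, 1395 and 1589 in treatment, against 1842, 1772 and 1630 in control, and PSPH, which catalyses its last, had 193, 192 and 221 in treatment, against 281, 243 and 251 in control. In both, each treatment array was below each control array, with log2 changes of -0.23 (-0.64 to 0.19) and -0.33 (-0.75 to 0.08). PSAT1, the enzyme between them, gave 0.16 (-0.27 to 0.58) with overlapping groups. A second PSPH cluster gave -0.10 ± 0.219, less than the one above. The subunits of the leucine transporter, SLC7A5 and SLC3A2, gave 0.15 and -0.06.

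The stress effectors held both genes with an unadjusted p under 0.05. CHAC1, an enzyme that degrades glutathione and a target of ATF4, had 88.7, 99.5 and 135 in treatment, against 85.0, 70.0 and 53.8 in control. The groups did not overlap, although treatment replicate 1 and control replicate 1 were close. The change was 0.53 ± 0.223 (SE), a 1.44-fold difference on the log2(intensity + 16) scale (limma, unadjusted p = 0.033, adjusted p = 0.677), and it was 0.38 without treatment replicate 3 and 0.39 without control replicate 3. VLDLR, a lipoprotein receptor that ATF4 signalling can raise, had 312, 294 and 215 in treatment, against 418, 406 and 369 in control. All treatment arrays lay below all control arrays. This was a log2 change of -0.53 ± 0.208 (unadjusted p = 0.0246, adjusted p = 0.663), and -0.37 without treatment replicate 3.

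TRIB3, a pseudokinase that ATF4 and DDIT3 induce, had 200, 230 and 295 in treatment, against 196, 261 and 253 in control, a log2 change of 0.02 (-0.45 to 0.49). The lowest value of each group was nearly the same. DDIT4, an inhibitor of mTORC1 signalling, had 71.3, 82.3 and 145 in treatment, against 75.8, 74.0 and 72.6 in control. Treatment replicate 3 alone stood out, and the change of 0.30 was 0.04 without it. The secreted glycoprotein STC2 gave 0.24, and 0.42 without treatment replicate 3. SESN2, which restrains mTORC1 when leucine is short, gave -0.12.

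**Figure D2:**
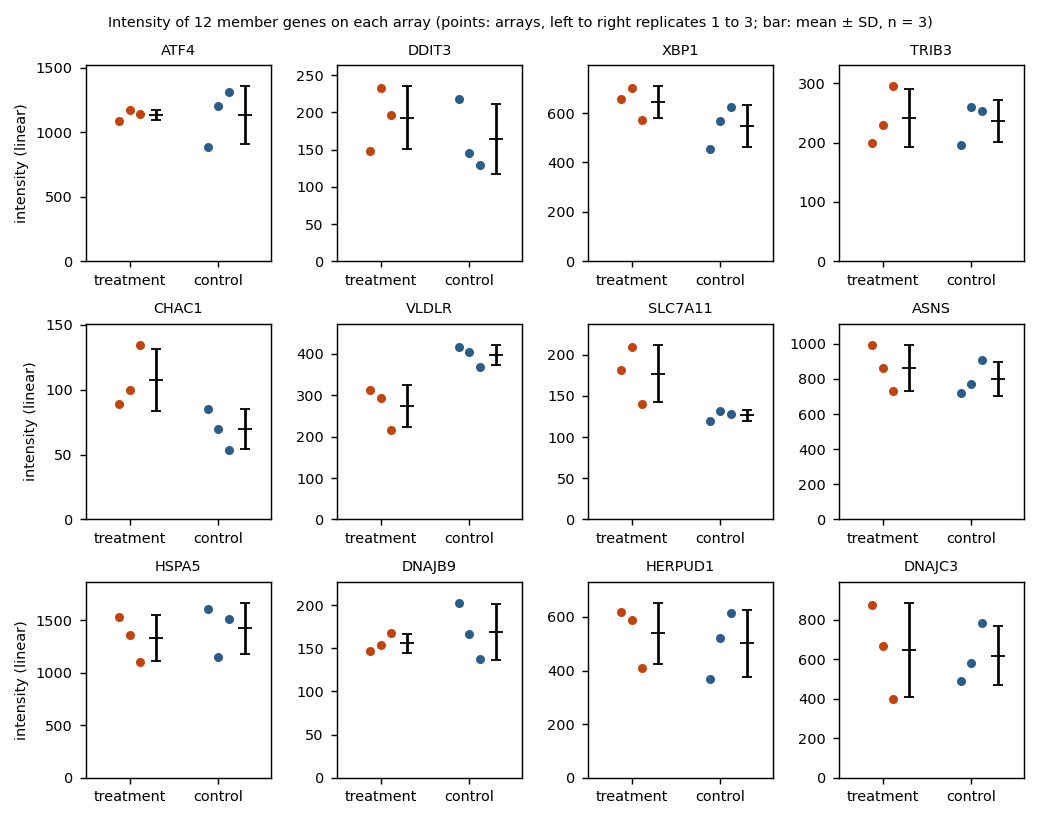
Linear intensity of 12 of the genes on each array, treatment left of control, with mean ± SD (n = 3). Treatment and control are separate for CHAC1, VLDLR and SLC7A11 and overlap in the other 9 genes drawn.

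Changes of the ER chaperones and folding factors lay on both sides of 0. None of the 12 passed, none had an unadjusted p under 0.05, and their median log2 change was 0.01, with a range from -0.30 to 0.23. HSPA5, the main ER chaperone BiP, had 1534, 1357 and 1105 in treatment, against 1608, 1149 and 1516 in control, a change of -0.09 (-0.56 to 0.38). The control values enclosed 2 of the 3 treatment values. HSP90B1, the ER member of its chaperone family, gave 0.04, CALR, a calcium-binding lectin chaperone, gave -0.08, and the disulfide isomerases PDIA4 and PDIA6 gave 0.00 and 0.13. DNAJB9, a co-chaperone of BiP controlled by XBP1, had 147, 154 and 168 in treatment, against 203, 167 and 137 in control, a change of -0.09 (-0.53 to 0.36).

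Among the rest of the folding factors, CRELD2 was the only gene with groups apart, at 107, 127 and 133 in treatment, against 142, 187 and 136 in control. Its highest treatment value and lowest control value were almost equal, and the log2 change was -0.30 (-0.74 to 0.14). DNAJB11, another BiP co-chaperone, gave 0.23, HYOU1, a large ER chaperone, -0.22, SDF2L1 0.11 and the secreted factor MANF 0.07. DNAJC3, an ER co-chaperone also described as an inhibitor of eIF2α kinases, had 875, 667 and 400 in treatment, against 492, 581 and 782 in control. This was the widest spread among treatment arrays of any of the 38 genes, 1.10 on the log2 scale, and the change of 0.02 became 0.32 without treatment replicate 3.

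In ER-associated degradation 0 of 3 genes passed. HERPUD1, a membrane scaffold of the degradation machinery, had 619, 589 and 409 in treatment, against 369, 521 and 614 in control, a log2 change of 0.11 (-0.41 to 0.63). EDEM1, which delivers misfolded glycoproteins, had 309, 351 and 248 in treatment, against 302, 324 and 275 in control, a change of 0.00 (-0.44 to 0.44). SEL1L, the partner of the ubiquitin ligase, gave -0.25. Treatment replicate 3 was the lowest treatment array in all 3 of these genes, and without it their median change was 0.13, against 0.00 with it.

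Genes with an ER stress response element of either form, 9 in all, had a median log2 change of 0.04. The other genes with a promoter window had 0.09. The 5 genes with a C/EBP-ATF core ran from -0.12 for PPP1R15B to 0.53 for CHAC1, with a median of 0.10. Each of these sets held values on both sides of 0.

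For most of the genes the larger log2 range within a group exceeded the absolute change between the group means. Over the 38 the median log2 range was 0.39 among treatment arrays and 0.39 among control arrays. The median absolute change was 0.15, against 0.18 over all clusters. In 35 genes the change was smaller than the larger of those ranges, and PHGDH, PSPH and VLDLR were the 3 where it was not. A range spans single arrays while a change compares means, so these are unlike measures. The same count was not made over all clusters, so whether it is particular to these genes is not known. Set against each gene's control mean, the 38 had a median of 0.03, 0.13 and -0.02 on treatment replicates 1, 2 and 3, and -0.05, 0.03 and 0.01 on control replicates 1, 2 and 3. For the 15 ER folding and degradation genes it was 0.01, 0.10 and -0.17 on the treatment arrays, and treatment replicate 3 had 4 of the 15 above the control mean. For the other 23 genes the treatment values were 0.07, 0.16 and 0.11. Over all genes with a symbol, treatment replicate 3 had -0.11, with 7818 of 18417 above the control mean.

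**Figure D3:**
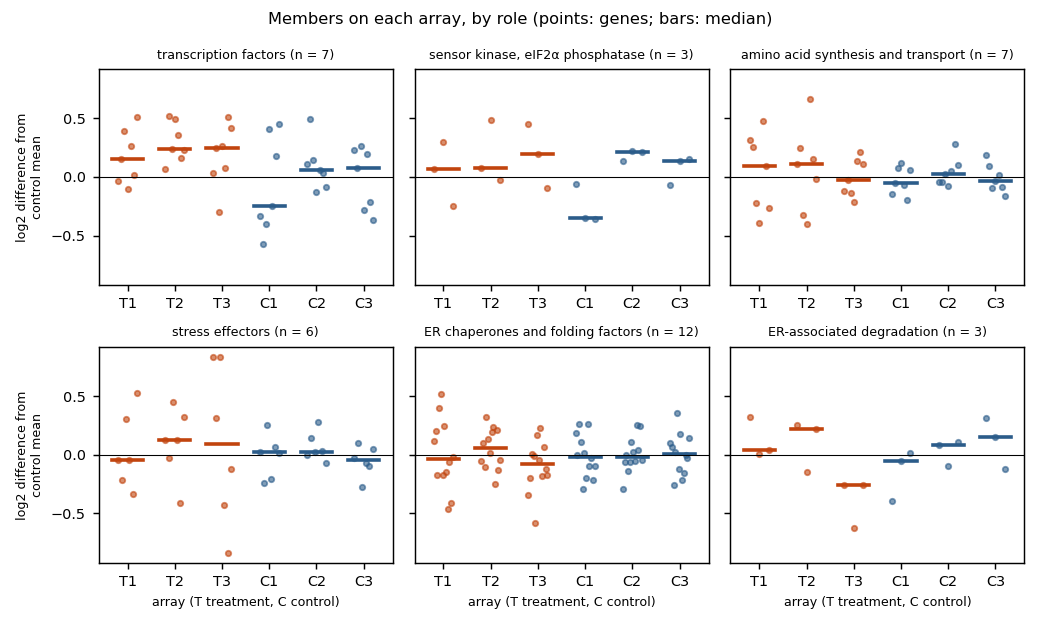
Log2 difference of each gene from its control mean on every array, T for treatment and C for control replicates 1 to 3, in 6 role groups; points are genes and bars their median. Replicates of 1 group differ among themselves, and control replicate 1 has medians of -0.35 for the sensor kinase and phosphatase subunits and -0.25 for the transcription factors, while treatment replicate 3 has -0.26 for the ER-associated degradation genes.

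Genes that act before or beside these ones were read from 6 further lists with 99 genes, of which 91 had a cluster of their own. None of the 91 passed, and their median log2 change was -0.06. At an unadjusted limma p under 0.05 were 3, or 3.3%, against 7.3% of all clusters. In 17, or 18.7%, the groups did not overlap, against 14.6% of all clusters. Of the 4 eIF2α kinases, EIF2AK2 (PKR), which is activated by double-stranded RNA and is itself induced by interferon, had intensities of 2263, 2130 and 1601 in treatment, against 1041, 1046 and 1255 in control. All treatment arrays were above all control arrays, a 1.77-fold difference and a log2 change of 0.82 (0.37 to 1.28; limma, unadjusted p = 0.00171, adjusted p = 0.292). EIF2AK2 passed in 1 of 17 other settings of the fit, an intensity trend in limma's variance prior (adjusted p = 0.00235). Its adjusted p was 0.658 on a plain log2 scale and 0.727 with the replicate number as a block. The sensor of ER stress EIF2AK3 gave -0.16, the amino acid sensor EIF2AK4 -0.26 and the heme-regulated kinase EIF2AK1 -0.06, all with overlapping groups. In the list of 12 kinase and translation factor genes, the other 11 changes were below 0, with EIF2B5, a subunit of the exchange factor, at -0.36. The list's median was -0.11, and 0.00 without treatment replicate 3, where 6 of the 12 were above 0, EIF2AK1 and EIF2AK3 among them at 0.08 and 0.15.

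Of 13 cytosolic aminoacyl-tRNA synthetases, WARS1, the tryptophan enzyme and a gene that interferon also induces, had 1259, 1851 and 1544 in treatment, against 814, 864 and 892 in control. Treatment was higher on every array, and the log2 change was 0.83 (0.38 to 1.28), with a limma adjusted p of 0.267. WARS1 also passed in 1 of the 17 other settings, the intensity trend (adjusted p = 0.00429). Its adjusted p was 0.626 on a plain log2 scale and 0.623 with the replicate block. The median of the 13 was -0.12, and VARS1 gave -0.38. Of 20 further ATF4 targets, ATF3, a stress-induced repressor, had 258, 317 and 290 in treatment, against 148, 202 and 193 in control, with no overlap and a change of 0.63 (0.19 to 1.08; adjusted p = 0.546). The hormone FGF21 gave 0.47 at intensities of 25.6 or less, and the median of the 20 was 0.05. EIF2AK2 and WARS1 had a promoter match to the core of the interferon-stimulated response element (GAAA, then 2 bases, then GAAA), which 4.38% of all genes hold. Among the 35 genes with a window only ATF5 held it, and ATF3 did not. ATF3 held a match to the C/EBP-ATF core, which 4.46% of all genes hold. Of the 91 listed genes, matches were read only for EIF2AK2, WARS1 and ATF3, those with an unadjusted limma p under 0.05. A link between a match and a change was not tested.
EIF2AK2 (chr2:37156972-37156991, minus strand): aagggGAAAACGAAActgag
WARS1 (chr14:100375388-100375407, minus strand): gaaggGAAACTGAAAgaaag

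**Figure D4:**
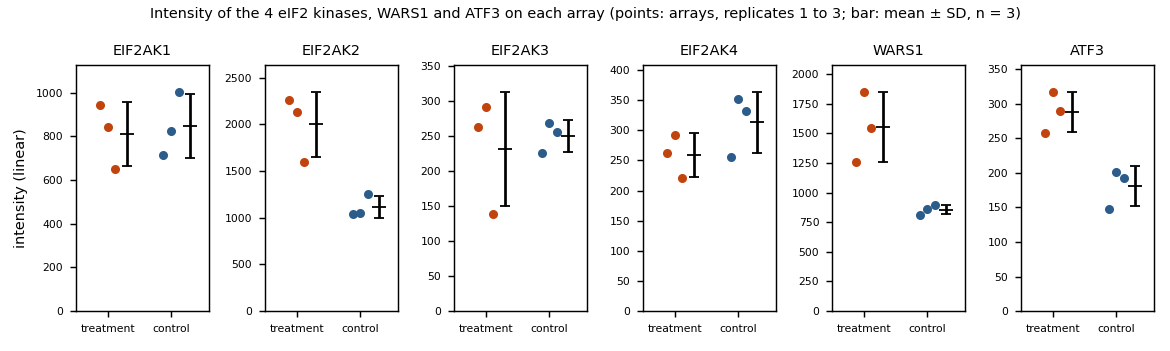
Linear intensity of the 4 eIF2α kinases, WARS1 and ATF3 on each array, treatment left of control, with mean ± SD (n = 3). EIF2AK2, WARS1 and ATF3 have every treatment array above every control array, and EIF2AK1, EIF2AK3 and EIF2AK4 overlap.

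In the 3 remaining lists no gene had an unadjusted p under 0.05. Of 23 further folding, translocation and transport genes (median 0.00), the disulfide isomerase subunit P4HB gave -0.33, and -0.13 in a second cluster. The translocon subunit SSR2 gave -0.27. On treatment replicate 3 the median of the 23 was -0.31 from the control mean, and on treatment replicates 1 and 2 it was 0.18 and 0.14. Without replicate 3 the median change was 0.19. Of 16 further degradation genes (median -0.06), the channel protein DERL2 gave 0.32 and the mannosidase-like EDEM2 -0.33, and without treatment replicate 3 the median was 0.08. Among 7 further stress transducers (median -0.28), the membrane-bound factors CREB3L1 and CREB3L2 gave 0.33 and -0.36, and CREB3L1 lay below the 95th percentile of olfactory receptors in both groups. The part of the low array in these medians was not tested.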

How the data were processed

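The 6 arrays (Affymetrix Gene 1.0 ST, biotin-labelled RNA of HEK293 cells) comprised 3 treatment and 3 control, grouped by title. Per cluster and array, the authors deposited 1 intensity on a linear scale. The submitters' processing notes name Partek, while how background, normalization and probe summary were handled is not given in the sources used here. A platform annotation named 19460 clusters by 1 symbol and 1754 by several, leaving 12083 unnamed; where a gene had several clusters, the brightest over the 6 arrays was used (2 of the 38 genes). The offset of 16 keeps values near 0 from dominating the log2 scale, and it understates changes of dim genes. limma 3.58.1 in R 4.3.3 (lmFit, eBayes, two-sided) was run on all clusters without a block and tested on simulated data. Values on every array are given for genes with an unadjusted p under 0.05, for 14 genes listed in the naming rule and for PHGDH, PSPH, DDIT4, CRELD2 and DNAJC3, which were added after their values were seen. The members, lists and rule were chosen with earlier results of these data known. Other pathway genes named are those past the threshold (none), the 4 eIF2α kinases and the 2 lowest p of each list. The number of arrays limits the precision. Promoter sequences are RefSeq's (GRCh38.p14), all windows of a gene counted.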

Additional observations from a re-analysis of the deposited data

How the results depend on the processing

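Across 17 alternatives (a plain log2, offsets of 1 and 50, quantile normalization, centring on the array median, 2 filters on dim clusters, 1 cluster per gene, an intensity trend, a robust prior, the replicate block and each array left out in turn) 0 of the 38 genes passed limma's adjusted p of 0.05. The median change of the 38 stayed above 0, from 0.026 without control replicate 1 to 0.094 without control replicate 3 among the left-out arrays, and was 0.032 after centring and 0.113 after quantile normalization. In 13 genes the sign of the uncalled change turned under at least 1 alternative. The median of the ER chaperones was -0.044 after centring, -0.048 without treatment replicate 1 and 0.041 without treatment replicate 3; with an array left out, that of the amino acid genes ran from 0.033 to 0.123, that of the stress effectors from 0.041 to 0.170, that of the transcription factors from 0.107 to 0.319, that of the sensor and phosphatase subunits from 0.071 to 0.266 and that of the ER-associated degradation genes from -0.108 to 0.129. Of the 91 other genes, 2 passed with an intensity trend (EIF2AK2 and WARS1). The count over all clusters was 124, fell to 40 on the plain log2 scale and 58 for offset 1, and ran from 69 to 129 with an array left out, the lowest without control replicate 1 (69) and treatment replicate 2 (82). With the replicate block 105 clusters and 0 of the 38 genes passed. Deviations from the group means correlated at -0.17, 0.08 and -0.36 between treatment and control arrays numbered 1, 2 and 3. Between arrays of different numbers they ran from -0.19 to 0.36, the highest for treatment replicate 1 with control replicate 3. These few correlations cannot settle whether the shared numbers pair the arrays. Dim signal limits NUPR1, FGF21 and CREB3L1.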
